A study of Mus musculus with 6 samples.

Results

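The genes described here encode the enzymes that cut the extracellular matrix, the proteins that hold these enzymes back and the enzymes that crosslink matrix fibres. They were taken by name as all matrix metalloproteinases (*Mmp*), the ADAMTS proteases (*Adamts*), the ADAMTS-like proteins (*Adamtsl*), the tissue inhibitors of metalloproteinases (*Timp1* to *Timp4*) and the lysyl oxidases (*Lox*, *Loxl1* to *Loxl4*). Of the 19505 genes that the array names, 52 carry such a symbol, and each of them was measured by 1 probe set. They comprised 21 metalloproteinases, 18 ADAMTS proteases, 5 ADAMTS-like proteins, 4 TIMPs and 4 lysyl oxidases. *Loxl2*, *Mmp27*, *Adamts2* and *Mmp15* were not analysed here. RNA came from the triceps brachii of 6 mice, all male and of the SAMP-10 strain, a senescence-accelerated prone line used as a model of accelerated aging, and that of each mouse was hybridized to an array of its own (Affymetrix Mouse Clariom S). The u40Hz-stimulation group (mice 4, 10 and 11) was exposed to unmodulated 40 Hz vibration and inaudible low-frequency sound for 24 h a day over 5 weeks, and the control group (mice 1, 6 and 8) received no stimulation. The mice were bought at 15 weeks of age and the tests that followed stimulation were run at 31 weeks. All 6 mice share the strain and the sex, so that neither group is a normally aging one. The comparison asked whether the expression of each class of matrix enzyme differed between the stimulated and the control mice.

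The matrix around muscle fibres is a network of collagens, proteoglycans and elastic fibres, made largely by fibroblasts and by the cells of tendon. Metalloproteinases are made as inactive precursors, are switched on by other proteases and are blocked by TIMPs, so that matrix turnover follows the balance of protease and inhibitor rather than either alone. Lysyl oxidases act after secretion and join collagen and elastin molecules by covalent crosslinks, which stiffens the fibres and makes them harder to digest.

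The median log2 signal of an array was between 5.53 and 5.61 and no array stood apart on it. These signals had been normalized by the authors, so near-equal medians say little about the arrays. Array weights from limma, by which a noisier array counts less, ran from 0.643 in u40Hz mouse 4 to 1.57 in control mouse 8. All 8 markers of skeletal muscle fibres were well detected, with a mean log2 signal of 18.94 to 19.43 in each mouse. Other cell types were not evenly spread over the mice. The mean log2 signal of 9 adipocyte markers was 12.14 in u40Hz mouse 4 and 6.04 to 7.81 in the other 5 mice. Slow fibre markers ranged from 7.85 in control mouse 6 to 13.79 in control mouse 1. The mean of 8 fibroblast markers stood at 9.94 in u40Hz mouse 10 and between 11.12 and 11.72 in the others. In that mouse *Col3a1* (6.45, against 9.18 to 10.67) and *Col1a2* (6.84, against 8.64 to 10.21) were far lower. *Dcn* (17.90, against 18.02 to 18.24) hardly differed, and *Lum* (11.28) was lower in control mouse 6 (11.13). Tenocyte markers, the genes of tendon cells, stood at 8.06 to 9.55 in the control group and at 7.12 to 7.92 in the u40Hz-stimulation group. Of these 10 genes, 9 had a lower mean at an unadjusted p under 0.05 from limma, against 3.15% of probe sets. Several tenocyte markers, such as *Fmod* (6.16-fold lower) and *Kera* (4.97-fold lower), pass the fold-change threshold by which the study filtered genes for its heatmap of these same arrays. The marker lists were also chosen with earlier results of these data known, so that count is not independent evidence of a direction. These were bulk samples, in which fewer cells of a type and less RNA per cell cannot be told apart.

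**Figure D1:**
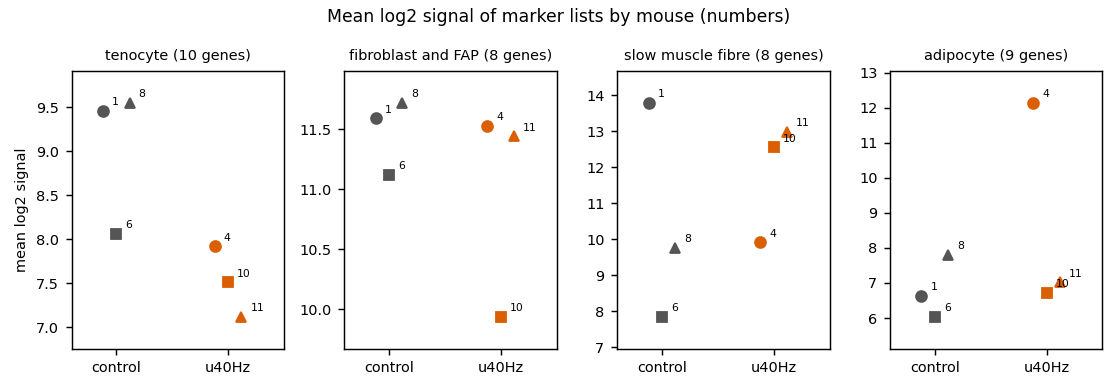
Mean log2 signal (vertical axis) of 4 lists of cell type markers in each mouse, with control mice in grey, u40Hz mice in orange and the mouse number beside each point. The adipocyte markers stood at 12.14 in u40Hz mouse 4, the fibroblast markers at 9.94 in u40Hz mouse 10, and all 3 u40Hz mice lay below the 3 control mice for the tenocyte markers.

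Many of the 52 genes gave little signal in this muscle. A dim level of 5.04 on the log2 scale was set from 1401 probe sets of olfactory and vomeronasal receptors, which muscle is not known to express, as the 95th percentile of their mean signals. Above it lay 22 members (42.3%), against 56.9% of all 22206 probe sets. These 22 were 3 of the 21 metalloproteinases (*Mmp2*, *Mmp14* and *Mmp19*), 7 of the 18 ADAMTS proteases, all 5 ADAMTS-like proteins, 3 of the 4 TIMPs and all 4 lysyl oxidases. The other 30 members were not above the dim level, and differences among their values may lie close to the background of the array. Signals of different probe sets depend on their probes as well as on RNA, so that genes are compared here between mice and not with one another.

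**Figure D2:**
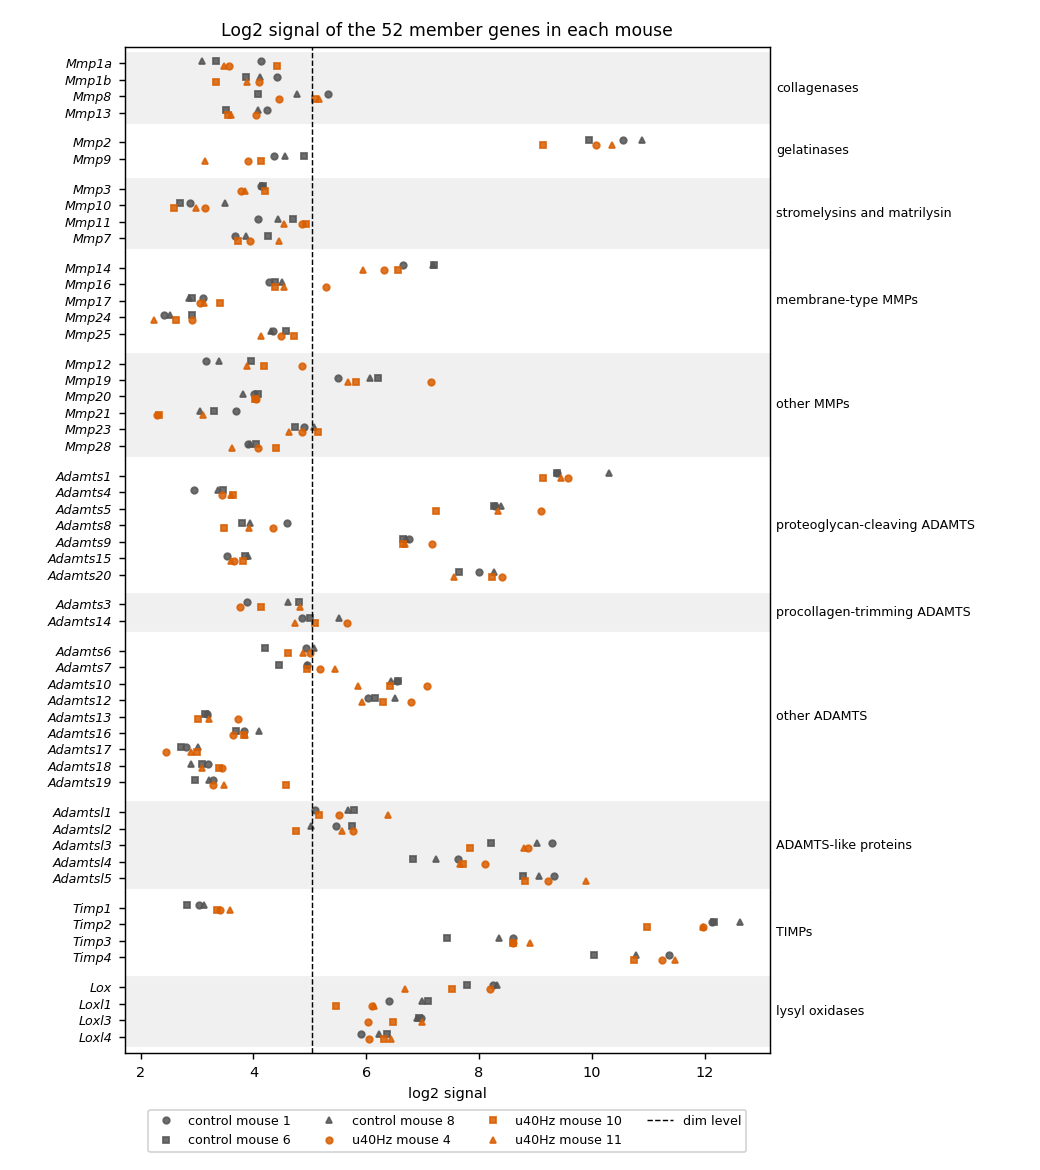
Log2 signal (horizontal axis) of each of the 52 member genes in each mouse, grouped by class, with control mice in grey, u40Hz mice in orange and the dim level of 5.04 as a dashed line. Of the 21 metalloproteinases 3 had a mean above the line, while all 5 ADAMTS-like proteins and all 4 lysyl oxidases did.

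No member differed between the groups after adjustment. Among the 52 genes, 0 had an adjusted p under 0.05 from limma, as had 0 of all probe sets (0%), and the smallest adjusted p of a member was 0.695. At an unadjusted p under 0.05, *Mmp9*, *Mmp14*, *Mmp21* and *Loxl1* had a lower mean in the stimulated mice and *Mmp12*, *Adamtsl4* and *Timp1* a higher mean. These 7 genes made up 13.5% of the members, against 7.01% of all probe sets. By direction, 3 members (5.77%) had a higher mean at this p, against 3.86% of probe sets, and 4 (7.69%) a lower mean, against 3.15%. The excess over the array was not kept in every fit: without moderation of the variance 3 members (5.77%) had an unadjusted p under 0.05, against 6.38% of probe sets, and without u40Hz mouse 10 it was 4 (7.69%), against 8.28%.

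The share of genes whose groups did not overlap was close to that of the array as a whole. All 3 u40Hz mice lay on one side of all 3 control mice for 7 members (13.5%), against 12.4% of probe sets. The groups lay apart with the u40Hz mice higher for *Adamts19*, *Adamtsl4* and *Timp1* (5.77%, against 6.40% of probe sets) and with the u40Hz mice lower for *Mmp9*, *Mmp14*, *Timp2* and *Loxl1* (7.69%, against 6.05%). For groups of this size the lowest two-sided p of an exact permutation test is 0.1, the value that each of these 7 genes reached. The mean was higher in the u40Hz-stimulation group for 28 members (53.8%), against 51.0% of probe sets. The median log2 fold change (u40Hz minus control, as throughout) was 0.053 over the members and 0.01 over all probe sets, and the median size of the change regardless of sign was 0.23 and 0.20.

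The same counts were taken on each side of the dim level. Above it, 3 of 22 members (13.6%) had an unadjusted p under 0.05, against 7.54% of the probe sets above that level, and 4 (18.2%) had groups that did not overlap, against 13.5%. Of these 22 members 11 (50%) had a higher mean, against 46.4%. At or below it, 4 of 30 members (13.3%) had an unadjusted p under 0.05, against 6.30% of such probe sets, and 3 (10%) had groups that did not overlap, against 11.1%. The 95% confidence interval of the log2 fold change lay between -1 and 1 for 35 members (67.3%), against 78.7% of probe sets. The intervals of the remaining members reached past a 2-fold change in 1 direction or both.

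**Figure D3:**
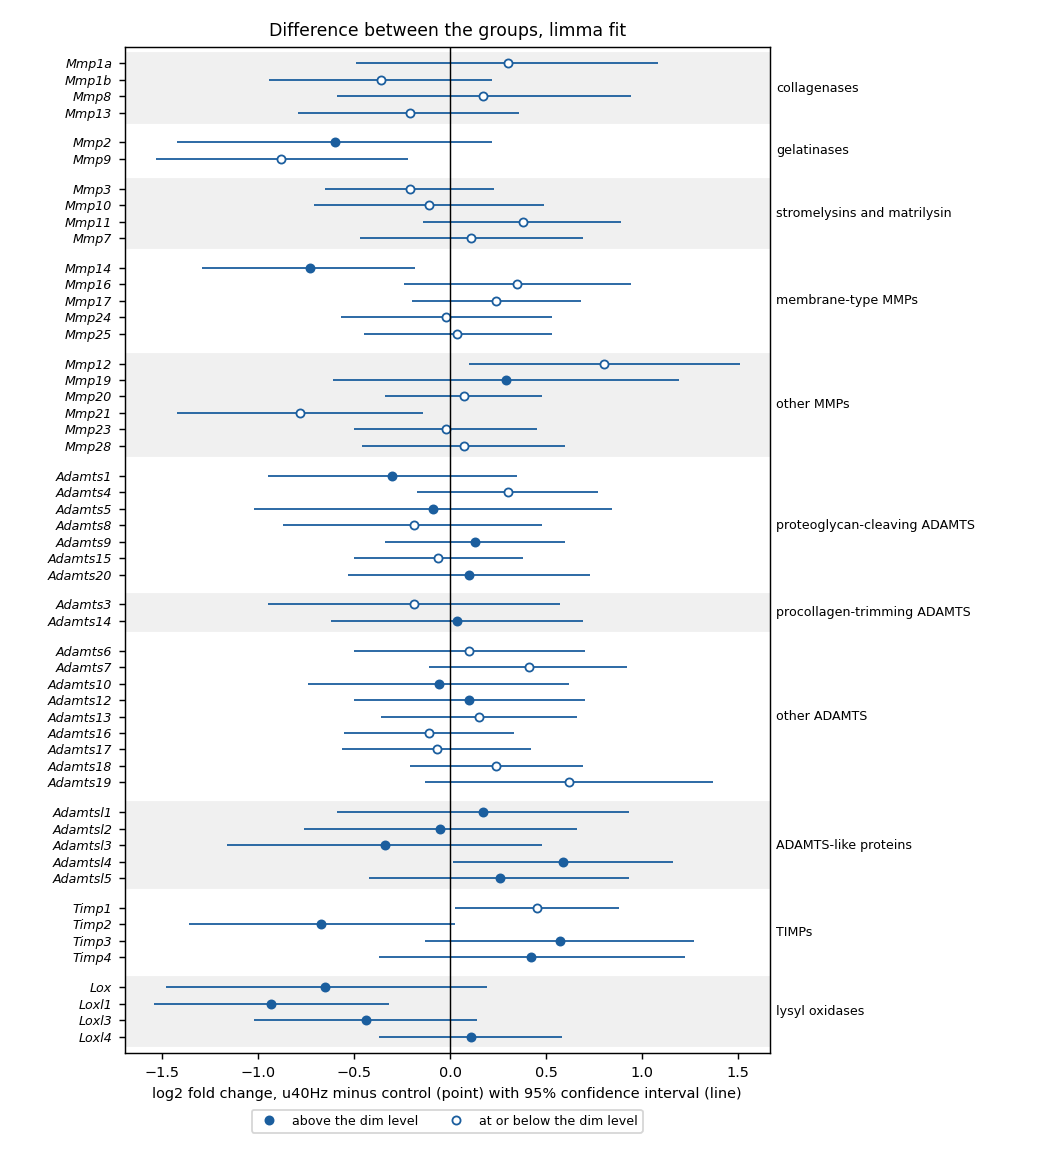
Log2 fold change of each member gene (point, u40Hz minus control) with its 95% confidence interval (line) from limma, filled points for genes above the dim level and open points for the rest. The changes ran from -0.93 for *Loxl1* to 0.80 for *Mmp12*, and the lines of 7 genes do not cross 0.

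Of the gelatinases, which digest denatured collagen and the collagen of basement membranes, both had a lower mean in the stimulated mice. *Mmp2*, made by fibroblasts and other stromal cells, had log2 signals of 10.55, 9.94 and 10.89 in control mice 1, 6 and 8 and of 10.08, 9.14 and 10.36 in u40Hz mice 4, 10 and 11. The groups overlapped, with the lowest value in u40Hz mouse 10. Its log2 fold change was -0.60 (SE 0.36, unadjusted p = 0.132 and adjusted p = 0.747 from limma). It moved to -0.24 without u40Hz mouse 10 and to -0.86 without control mouse 6. The fibroblast markers were lowest in the same u40Hz mouse 10, and their part in this difference was not tested.

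*Mmp9*, a gelatinase stored in neutrophils and made by macrophages, was not above the dim level. Its log2 signals were 4.36, 4.89 and 4.56 in the control mice and 3.91, 4.13 and 3.14 in the u40Hz mice. Every u40Hz mouse lay below every control mouse, although all 6 values were under the dim level. The log2 fold change was -0.88 (SE 0.29, unadjusted p = 0.0149 and adjusted p = 0.695 from limma), and it ran from -1.08 to -0.58 as each mouse was left out, staying at an unadjusted p under 0.05 in 5 of 6 such fits. The mean log2 signal of 7 neutrophil markers was 5.88 in u40Hz mouse 10 and 4.33 to 4.91 in the other 5. Of these 7 markers 4 were not above the dim level, and they did not share a direction in u40Hz mouse 10. *S100a8* (8.85), *S100a9* (7.41), *Ngp* and *Camp* had their highest value in that mouse. *Elane* (3.83) and *Cxcr2* (4.72) had their lowest value there, and *Mpo* lay within the range of the other mice. The mean of the macrophage markers was 7.68, 8.06 and 8.12 in the control mice and 7.54, 7.89 and 7.59 in the u40Hz mice, with a lower group mean for 6 of 7 genes and a median log2 fold change of -0.37. Of these 7, *Lyz2* and *C1qa* had all u40Hz mice below all control mice, as had 6.05% of probe sets. An unadjusted p under 0.05 from limma was reached by 0 of the 7, against 7.01% of probe sets. The part of either cell type in the *Mmp9* values was not tested.

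The membrane-type metalloproteinases stay anchored at the cell surface, where *Mmp14* cuts collagen directly and activates the precursor of MMP2 in a complex with TIMP2. *Mmp14* was the one member of its class above the dim level. Its log2 signals were 6.66, 7.20 and 7.18 in the control mice and 6.32, 6.57 and 5.95 in the u40Hz mice. The groups did not overlap, although u40Hz mouse 10 and control mouse 1 were neighbours at 6.57 and 6.66. The mean was 1.66-fold lower in the u40Hz-stimulation group, a log2 fold change of -0.73 (SE 0.24, unadjusted p = 0.0155 and adjusted p = 0.695 from limma). Leaving out a mouse gave -0.91 (without control mouse 1) to -0.57 (without u40Hz mouse 11), and 3 of the 6 fits kept an unadjusted p under 0.05. The tenocyte markers were lowest in u40Hz mouse 11 (7.12), as *Mmp14* was. In the control group the order differed, as control mouse 6 had the highest *Mmp14* (7.20) and the lowest tenocyte mean (8.06). The part of these markers was not tested. The other 4 genes of the class (*Mmp16*, *Mmp17*, *Mmp24* and *Mmp25*) were not above the dim level and had log2 fold changes of -0.023 to 0.35.

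The 4 collagenases, which open the intact collagen triple helix, gave no signal above the dim level in their means. *Mmp1b* had the smallest p of the class, with log2 signals of 4.42, 3.87 and 4.12 in the control mice and 4.10, 3.34 and 3.89 in the u40Hz mice. The groups overlapped, at a log2 fold change of -0.36 (SE 0.26, unadjusted p = 0.194 and adjusted p = 0.779 from limma). *Mmp1a*, *Mmp8* and *Mmp13* had log2 fold changes of 0.30, 0.17 and -0.21. *Mmp8*, the collagenase of neutrophils, passed 5.04 in control mouse 1 (5.32) and in u40Hz mice 10 and 11 (5.09 and 5.16).

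The stromelysins and matrilysin, which cut proteoglycans and glycoproteins and help to activate other metalloproteinases, were likewise dim. *Mmp11*, whose product is activated inside the cell before it is secreted, had log2 signals of 4.09, 4.71 and 4.43 in the control mice and 4.87, 4.94 and 4.55 in the u40Hz mice. Only u40Hz mouse 11 fell within the control range. This was a log2 fold change of 0.38 (SE 0.23, unadjusted p = 0.132 and adjusted p = 0.747 from limma). *Mmp3*, *Mmp7* and *Mmp10* had log2 fold changes between -0.21 and 0.11.

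Among the remaining 6 metalloproteinases, the probe sets at an unadjusted p under 0.05 lay in opposite directions. *Mmp12*, the elastase of macrophages, had log2 signals of 3.16, 3.96 and 3.39 in the control mice and 4.86, 4.18 and 3.88 in the u40Hz mice. The highest value was that of u40Hz mouse 4, and u40Hz mouse 11 lay below control mouse 6. The log2 fold change of 0.80 (SE 0.31, unadjusted p = 0.0301 and adjusted p = 0.704 from limma) was the largest positive one among the members, and it was 0.53 without u40Hz mouse 4 and 1.03 without control mouse 6. An unadjusted p under 0.05 was kept in 3 of the 6 fits without a mouse. The macrophage markers, given above beside *Mmp9*, had their lowest mean in u40Hz mouse 4 (7.54), and the adipocyte markers their highest (12.14). Their part in the *Mmp12* values was not tested.

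*Mmp21*, known for its part in the left-right patterning of the embryo, had log2 signals of 3.69, 3.31 and 3.06 in the control mice and 2.30, 2.32 and 3.10 in the u40Hz mice. U40Hz mouse 11 fell within the control range, and all values were far under the dim level. The difference was -0.78 on the log2 scale (SE 0.28, unadjusted p = 0.0219 and adjusted p = 0.695 from limma). It ran from -1.04 to -0.61 as mice were left out and passed 0.05 before adjustment in 3 of 6 such fits, and the unadjusted p without moderation was 0.0719 with all 6 mice. *Mmp19* was above the dim level, with 5.50, 6.20 and 6.06 in the control mice and 7.15, 5.81 and 5.67 in the u40Hz mice. Its log2 fold change of 0.29 became -0.18 without u40Hz mouse 4, in which the adipocyte markers were also highest. *Mmp20*, an enzyme of tooth enamel, *Mmp23* and *Mmp28* had log2 fold changes of 0.07, -0.023 and 0.07.

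Of the dim metalloproteinases, 9 are neighbours on chromosome 9 in the RefSeq annotation of GRCm38.p6, in the order *Mmp13*, *Mmp12*, *Mmp1b*, *Mmp3*, *Mmp1a*, *Mmp10*, *Mmp8*, *Mmp20* and *Mmp7*. Their mean log2 signals were 2.97 to 4.82, 5 of the 9 had a higher mean in the stimulated mice and 1 had an unadjusted p under 0.05. Promoters of 34 members were given in a RefSeq table, 250 bases before to 50 after each start site, and were searched for the AP-1 motif TGAGTCA (both strands, so TGACTCA too), which is bound by FOS and JUN proteins and is a known element of metalloproteinase promoters. It was found in 7 of the 34 members (20.6%), against 5.95% of the 27025 genes and 5.20% of the 32851 promoters in the table. All 7 are in the chromosome 9 group, which arose by duplication, so they are not independent of one another. The 100 bases before the start site are shown for these 7 because they carry the shared element at different distances. Capitals mark TGAGTCA or TGACTCA, and TATAAA on the strand shown, and no matches of different motifs overlapped in them.
Mmp13 (chr9:7272414-7272513, plus strand): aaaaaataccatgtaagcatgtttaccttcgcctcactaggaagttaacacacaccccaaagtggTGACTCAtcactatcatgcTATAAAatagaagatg
Mmp12 (chr9:7347274-7347373, plus strand): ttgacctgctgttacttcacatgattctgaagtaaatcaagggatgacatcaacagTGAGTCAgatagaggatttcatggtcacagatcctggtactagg
Mmp1b (chr9:7388027-7388126, minus strand): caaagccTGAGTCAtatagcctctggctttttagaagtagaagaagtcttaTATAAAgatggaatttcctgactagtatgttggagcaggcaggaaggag
Mmp3 (chr9:7445722-7445821, plus strand): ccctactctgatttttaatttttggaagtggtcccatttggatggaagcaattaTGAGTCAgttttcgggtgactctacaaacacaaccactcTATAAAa
Mmp1a (chr9:7464041-7464140, plus strand): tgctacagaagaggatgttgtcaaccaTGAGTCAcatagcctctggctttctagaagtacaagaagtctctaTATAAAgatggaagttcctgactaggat
Mmp10 (chr9:7502242-7502341, plus strand): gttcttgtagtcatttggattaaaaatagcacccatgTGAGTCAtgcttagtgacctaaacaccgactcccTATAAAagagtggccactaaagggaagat
Mmp7 (chr9:7691990-7692089, plus strand): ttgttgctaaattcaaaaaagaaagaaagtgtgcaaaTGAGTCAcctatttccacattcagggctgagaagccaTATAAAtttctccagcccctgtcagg

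The first base of the AP-1 match lay 35 bases before the start in *Mmp13*, 44 in *Mmp12*, 93 in *Mmp1b*, 46 in *Mmp3*, 73 in *Mmp1a*, 63 in *Mmp10* and 63 in *Mmp7*. *Mmp12* and *Mmp7* have 2 start sites each in the table, and the one with the match is shown. *Mmp1a* and *Mmp1b* are close copies of each other, and whether their probes tell them apart was not tested. All 7 genes were at or below the dim level, with mean log2 signals of 2.97 to 4.05 and log2 fold changes of -0.36 to 0.80, and 3 of the 7 had a higher mean. A match of letters is a description and not a bound site. The E-box CACGTG, the same on both strands, was found in 2 of the 34 members (5.88%), *Adamts17* and *Mmp7*, against 8.09% of genes and 7.15% of promoters.

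TATAAA on the forward strand and GGGCGG on both strands, a GC box, were searched after the sequences had been seen. TATAAA was in 11 of the 34 members (32.4%), against 9.77% of genes and 8.32% of promoters. Outside the chromosome 9 group these were only *Adamts1*, *Adamtsl2* and *Mmp21*, and those in the group are not independent of one another. GGGCGG or CCGCCC was in 21 of the 34 members (61.8%), against 38.2% of genes and 35.7% of promoters. It was in 12 of the 14 members above the dim level that the table holds. The share over all genes above that level was not taken. GC boxes were also found in members whose groups of mice overlapped, such as *Timp3* and *Mmp11*. *Adamts1* and *Adamtsl2* hold both TATAAA and a GC box, and *Mmp8* of the chromosome 9 group holds neither the AP-1 motif nor TATAAA. The same window, with GC boxes in capitals, is shown for 4 members picked because their groups did not overlap. This choice does not link the motif to a difference between the groups.
Mmp14 (chr14:54431498-54431597, plus strand): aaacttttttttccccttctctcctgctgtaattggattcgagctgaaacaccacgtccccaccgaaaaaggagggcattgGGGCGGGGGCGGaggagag
Adamtsl4 (chr3:95687918-95688017, minus strand): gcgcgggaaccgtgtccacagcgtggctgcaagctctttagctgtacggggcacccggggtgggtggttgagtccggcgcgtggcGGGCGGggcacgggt
Timp2 (chr11:118355412-118355511, minus strand): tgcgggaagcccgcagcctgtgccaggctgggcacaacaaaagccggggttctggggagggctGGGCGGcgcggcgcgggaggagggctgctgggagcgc
Timp1 (chrX:20870066-20870165, plus strand): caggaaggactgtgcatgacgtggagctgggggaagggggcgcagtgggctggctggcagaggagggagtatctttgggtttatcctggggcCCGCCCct
None of these 4 windows holds the AP-1 motif or TATAAA. *Mmp14*, *Adamtsl4* and *Timp2* were above the dim level, and *Timp1* was not.

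Of the 18 ADAMTS proteases, only 7 were above the dim level, and 0 of the 18 had an unadjusted p under 0.05 from limma, against 7.01% of probe sets. Their log2 fold changes ran from -0.30 (*Adamts1*) to 0.62 (*Adamts19*). For 16 of 18 the 95% confidence interval lay between -1 and 1, against 78.7% of probe sets, which does not show that they were unchanged. Of the 7 that cleave proteoglycans such as versican and aggrecan, *Adamts1*, *Adamts5*, *Adamts9* and *Adamts20* were above the dim level and 3 had a higher mean. *Adamts1*, which cleaves versican, had log2 signals of 9.39, 9.38 and 10.30 in the control mice and 9.57, 9.14 and 9.46 in the u40Hz mice. Control mouse 8 stood above the other 5, whose values were intermingled. The log2 fold change of -0.30 (SE 0.28, unadjusted p = 0.320 and adjusted p = 0.836 from limma) was 0.005 without that mouse.

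*Adamts5*, an aggrecanase, was held within 8.27 to 8.38 in the control mice and spread from 7.23 in u40Hz mouse 10 to 9.09 in u40Hz mouse 4. Its log2 fold change was -0.09 (SE 0.41, unadjusted p = 0.831 and adjusted p = 0.974 from limma), and leaving out a mouse gave -0.52 to 0.41. The u40Hz mice at its extremes were those with the lowest fibroblast markers and the highest adipocyte markers, whose part was not tested. *Adamts4*, the other classical aggrecanase, was dim, with 2.95, 3.46 and 3.38 in the control mice and 3.45, 3.64 and 3.61 in the u40Hz mice. The values of u40Hz mouse 4 and control mouse 6 were next to each other, and the log2 fold change was 0.30 (SE 0.21, unadjusted p = 0.177 and adjusted p = 0.770 from limma).

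Of the pair that trims the amino end of procollagens, *Adamts14* had a mean of 5.14, just above the dim level, and a log2 fold change of 0.037. *Adamts3* was dim, with 3.88, 4.80 and 4.61 in the control mice and 3.77, 4.14 and 4.82 in the u40Hz mice. Its groups overlapped over nearly their whole range, with a log2 fold change of -0.19 (SE 0.33, unadjusted p = 0.589 and adjusted p = 0.923 from limma). Among the other 9 ADAMTS genes, *Adamts10*, linked to fibrillin microfibrils, and *Adamts12* were above the dim level, with log2 fold changes of -0.06 and 0.10. *Adamts19*, dim in all mice, had 3.28, 2.97 and 3.22 in the control mice and 3.29, 4.57 and 3.47 in the u40Hz mice. The groups just failed to touch, at 3.28 and 3.29, and one mouse, u40Hz mouse 10, stood above the rest. Its log2 fold change of 0.62 (SE 0.33, unadjusted p = 0.0949 and adjusted p = 0.729 from limma) was 0.22 without u40Hz mouse 10 and 0.86 without u40Hz mouse 4, where the unadjusted p of 0.0310 passed 0.05. *Adamts13*, the protease of von Willebrand factor, had a log2 fold change of 0.15.

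The ADAMTS-like proteins resemble the ADAMTS proteases but lack the catalytic domain, and several bind the microfibrils of elastic fibres. All 5 were above the dim level and 3 had a higher mean in the stimulated mice. *Adamtsl4*, which binds fibrillin microfibrils, had log2 signals of 7.63, 6.83 and 7.24 in the control mice and 8.10, 7.71 and 7.66 in the u40Hz mice. Every u40Hz mouse lay above every control mouse, with u40Hz mouse 11 and control mouse 1 nearly equal at 7.66 and 7.63. The mean was 1.51-fold higher, a log2 fold change of 0.59 (SE 0.25, unadjusted p = 0.0453 and adjusted p = 0.711 from limma). It was 0.39 without control mouse 6 and 0.79 without control mouse 1, and 1 of 6 fits without a mouse kept an unadjusted p under 0.05.

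*Adamtsl3* and *Adamtsl5* were 2 of the 6 members with the highest mean signals. The log2 signals of *Adamtsl3* were 9.29, 8.21 and 9.02 in the control mice and 8.87, 7.84 and 8.79 in the u40Hz mice. Control mouse 6 and u40Hz mouse 10 were the low values of the 2 overlapping groups, and the log2 fold change was -0.34 (SE 0.36, unadjusted p = 0.372 and adjusted p = 0.856 from limma). It was -0.01 without u40Hz mouse 10, in which the fibroblast markers were lowest, and -0.65 without control mouse 6. *Adamtsl5* had 9.33, 8.77 and 9.06 in the control mice and 9.22, 8.82 and 9.89 in the u40Hz mice. Apart from u40Hz mouse 11 the values overlapped, and its log2 fold change of 0.26 (SE 0.30, unadjusted p = 0.409 and adjusted p = 0.869 from limma) was -0.033 without that mouse. *Adamtsl1* and *Adamtsl2* had log2 fold changes of 0.17 and -0.05.

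The TIMPs did not share a direction: *Timp2* had a lower mean in the stimulated mice and *Timp1*, *Timp3* and *Timp4* a higher mean. *Timp2*, an inhibitor that also takes part in MMP2 activation at the cell surface, had log2 signals of 12.13, 12.17 and 12.63 in the control mice and 11.97, 10.98 and 11.97 in the u40Hz mice. All u40Hz mice lay below all control mice, and u40Hz mouse 10 lay far below the rest. The mean was 1.59-fold lower, a log2 fold change of -0.67 (SE 0.30, unadjusted p = 0.0569 and adjusted p = 0.712 from limma). Without u40Hz mouse 10 the log2 fold change was -0.34, and without u40Hz mouse 4 it was -0.83. The fibroblast markers were lowest in u40Hz mouse 10 too, and their part was not tested.

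*Timp3*, which binds to the matrix and also inhibits ADAMTS aggrecanases and the sheddase ADAM17, had log2 signals of 8.61, 7.44 and 8.36 in the control mice and 8.61, 8.61 and 8.90 in the u40Hz mice. Control mouse 6 stood well below the other 5, and control mouse 1 equalled both u40Hz mouse 4 and u40Hz mouse 10. The mean difference was 0.57 on the log2 scale (SE 0.31, unadjusted p = 0.0967 and adjusted p = 0.730 from limma). It was 0.22 without control mouse 6 and 0.81 without control mouse 1, where the unadjusted p was 0.0323.

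*Timp4*, the TIMP known for its expression in heart and skeletal muscle, had log2 signals of 11.37, 10.03 and 10.79 in the control mice and 11.24, 10.75 and 11.47 in the u40Hz mice. The groups overlapped and control mouse 6 was again the lowest. Its log2 fold change of 0.42 (SE 0.35, unadjusted p = 0.257 and adjusted p = 0.809 from limma) was 0.073 without control mouse 6. Slow fibre markers were lowest in that mouse as well (7.85), and endothelial markers stood at 9.14 in it and at 9.63 to 10.07 in the others. Their part in the *Timp3*, *Timp4* and *Adamtsl4* values was not tested.

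*Timp1*, the TIMP that is induced in injured tissue, was dim in all mice. Its log2 signals were 3.04, 2.83 and 3.12 in the control mice and 3.40, 3.36 and 3.59 in the u40Hz mice. The groups did not overlap and each spanned a narrow range, with an SD of 0.15 and 0.12. A log2 fold change of 0.45 was fitted (SE 0.19, unadjusted p = 0.0397 and adjusted p = 0.711 from limma), which ran from 0.37 to 0.51 as mice were left out. With 5 mice, 0 of the 6 fits gave an unadjusted p under 0.05 from limma, the lowest being 0.0503.

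Of the crosslinking enzymes, *Lox*, *Loxl1* and *Loxl3* had a lower mean in the stimulated mice and *Loxl4* a higher mean, with -0.54 as the class median of the log2 fold change. *Loxl1*, which crosslinks elastin in elastic fibres, had the largest difference of all members. Its log2 signals were 6.41, 7.09 and 6.99 in the control mice and 6.10, 5.47 and 6.13 in the u40Hz mice. The groups did not overlap, with control mouse 1 the nearest to the u40Hz mice and u40Hz mouse 10 the lowest of all. The mean was 1.91-fold lower, a log2 fold change of -0.93 (SE 0.27, unadjusted p = 0.00779 and adjusted p = 0.695 from limma). Leaving out a mouse gave -1.14 to -0.72, and of the 52 members it was the only one with an unadjusted p under 0.05 in all 6 of these fits. The share of all probe sets that did so was not taken. The tenocyte markers also had all 3 u40Hz mice (7.12 to 7.92) below all 3 control mice (8.06 to 9.55). Those of fibroblasts were also lowest in u40Hz mouse 10 (9.94). Within the groups the order differed. Control mouse 6 had the highest *Loxl1* (7.09) but the lowest tenocyte (8.06) and fibroblast (11.12) means of the control group. U40Hz mouse 11 had the highest *Loxl1* of its group (6.13) and the lowest tenocyte mean (7.12). The part of these markers in the *Loxl1* difference was not tested.

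*Lox*, the founding enzyme of the family and a crosslinker of fibrillar collagen, had log2 signals of 8.25, 7.78 and 8.31 in the control mice and 8.20, 7.52 and 6.68 in the u40Hz mice. U40Hz mouse 4 was within the control range, u40Hz mouse 10 just below it and u40Hz mouse 11 far below it. The log2 fold change was -0.65 (SE 0.37, unadjusted p = 0.113 and adjusted p = 0.737 from limma), -0.25 without u40Hz mouse 11 and -1.01 without u40Hz mouse 4, where the unadjusted p was 0.0110. Tenocyte markers were lowest in u40Hz mouse 11, at 7.12, and their part was not tested. *Loxl3* was at 6.90 to 6.97 in all control mice and at 6.04, 6.47 and 6.99 in the u40Hz mice, with a log2 fold change of -0.44 (SE 0.25, unadjusted p = 0.122 and adjusted p = 0.745 from limma). This was -0.21 without u40Hz mouse 4 and -0.68 without u40Hz mouse 11, where the unadjusted p of 0.0185 passed 0.05. *Loxl4* had a log2 fold change of 0.11.

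**Figure D4:**
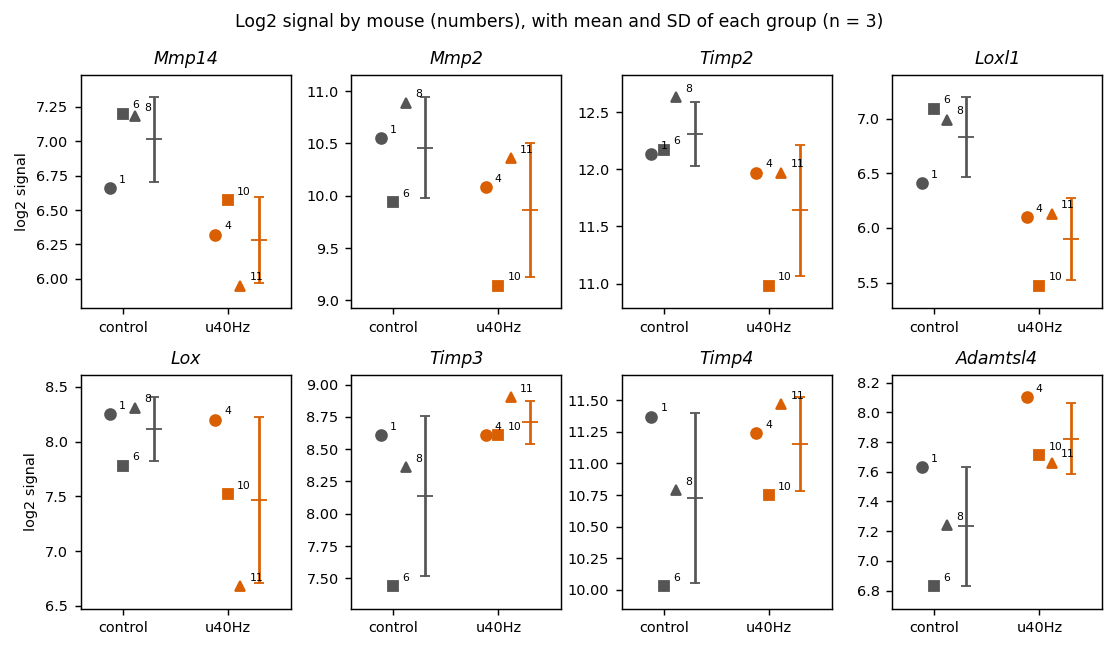
Log2 signal (vertical axis) of 8 members above the dim level in each mouse, with the mouse number beside each point and the mean and SD of each group of 3 mice as a bar. The groups lie apart for *Mmp14*, *Timp2*, *Loxl1* and *Adamtsl4*, and single mice stand far from their group for *Timp2* (u40Hz mouse 10 at 10.98), *Lox* (u40Hz mouse 11 at 6.68), *Timp3* (control mouse 6 at 7.44) and *Timp4* (control mouse 6 at 10.03).

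The enzyme MMP2, its activator MMP14 and its partner TIMP2 act in one complex at the cell surface, and the mean of each of the 3 genes was lower in the u40Hz-stimulation group. They did not single out the same mice. *Mmp2* and *Timp2* were lowest in u40Hz mouse 10, whereas for *Mmp14* that mouse had the highest value of its group and u40Hz mouse 11 the lowest. Without u40Hz mouse 10 the log2 fold changes were -0.24 for *Mmp2*, -0.34 for *Timp2* and -0.88 for *Mmp14*.

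**Figure D5:**
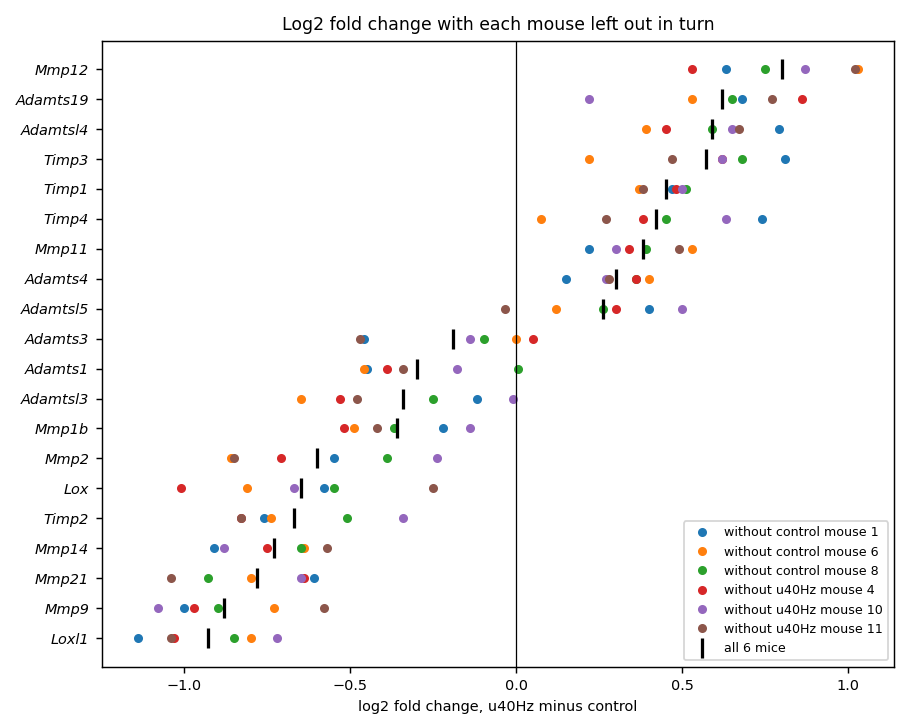
Log2 fold change (horizontal axis, u40Hz minus control) of 20 members with all 6 mice (black tick) and with each mouse left out in turn (coloured points). *Loxl1* stayed between -1.14 and -0.72, whereas *Timp4* fell to 0.073 without control mouse 6 and *Adamts1* reached 0.005 without control mouse 8.

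Members above the dim level took their extreme values in particular mice. U40Hz mouse 4 held the highest value for 9 of these 22 genes (40.9%), against 17.8% of the probe sets above that level, and u40Hz mouse 10 the lowest for 7 of 22 (31.8%), against 15.2%. U40Hz mouse 10 held the highest value for 0 of the 22, against 16.3%. U40Hz mouse 11 held the highest value for 6 of the 22 (27.3%, against 16.2%) and the lowest for 6 as well (27.3%, against 14.0%). Control mouse 8 held the lowest value for 0 of the 22, against 11.8%. Over all 52 members the shares were nearer to the array as a whole, with the highest value in u40Hz mouse 4 for 13 genes (25.0%), against 21.5% of probe sets.

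Genes that act with these enzymes were examined in 8 lists, 6 of which are described here. Over all probe sets, 51.0% had a higher mean and 3.15% a lower mean at an unadjusted p under 0.05, and with lists this short 1 gene moves a share by a large step. In the plasminogen system, which activates several metalloproteinases, 7 genes were measured, 6 had a lower mean and *Plgrkt*, a receptor that holds plasminogen at the cell surface, had an unadjusted p under 0.05. *Plgrkt* had log2 signals of 8.76, 8.79 and 8.96 in the control mice and 8.09, 7.91 and 8.51 in the u40Hz mice. These groups did not overlap, with a log2 fold change of -0.67 (SE 0.21, unadjusted p = 0.0133 and adjusted p = 0.695 from limma). The precursor *Plg* and its inhibitor *Serpinf2* were dim, at -0.41 and -0.32. Of 12 partners and regulators of metalloproteinases 8 had a lower mean and 0 an unadjusted p under 0.05 from limma, the smallest being that of the protease *Pcsk5* (-0.31, unadjusted p = 0.144 and adjusted p = 0.750). *Bsg*, an inducer of metalloproteinases, had a log2 fold change of -0.29 and *Tfpi2* of 0.30.

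The cysteine proteases of matrix breakdown and their inhibitor *Cst3* numbered 5, of which 3 had a lower mean and 0 an unadjusted p under 0.05 from limma. Their smallest p was that of *Cst3* (-0.35, unadjusted p = 0.112 and adjusted p = 0.737), followed by *Ctsk* (-0.47) and *Ctss* (-0.23). Of 7 astacin proteases and their helpers, which trim the carboxyl end of procollagens, 6 had a lower mean. *Pcolce2*, an enhancer of that cleavage, had log2 signals of 8.07, 8.73 and 9.03 in the control mice and 7.27, 7.63 and 7.81 in the u40Hz mice. All u40Hz mice lay below all control mice, by a mean of 2.06-fold (log2 fold change -1.04, SE 0.28, unadjusted p = 0.00543 and adjusted p = 0.635 from limma). *Bmp1*, the protease it assists and an activator of lysyl oxidase, was at -0.48 (SE 0.22, unadjusted p = 0.0592 and adjusted p = 0.712 from limma) and *Tll2* at -0.27.

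Elastic fibre and microfibril genes, among them substrates of the lysyl oxidases and partners of the ADAMTS-like proteins, had a lower mean in 11 of 14 cases and an unadjusted p under 0.05 in 2 (14.3%, against the 3.15% of probe sets given above). *Fbln2*, a fibulin, had log2 signals of 8.55, 9.09 and 9.12 in the control mice and 7.65, 8.06 and 8.23 in the u40Hz mice. Its groups lay apart, with a log2 fold change of -0.94 (SE 0.24, unadjusted p = 0.00428 and adjusted p = 0.635 from limma). *Mfap4* (-0.86, unadjusted p = 0.0381 and adjusted p = 0.711) also had groups that did not overlap, while those of *Mfap5* (-0.83, unadjusted p = 0.0694 and adjusted p = 0.717) did. Of 9 genes of the TGF-β pathway (3 ligands, 2 receptors and 4 genes known as targets or feedback inhibitors) 6 had a lower mean and 1 an unadjusted p under 0.05. *Tgfbi*, a secreted protein that links collagens to cells, had log2 signals of 10.30, 10.63 and 10.86 in the control mice and 9.78, 9.82 and 9.88 in the u40Hz mice. The u40Hz mice had an SD of 0.05 and lay below all control mice, and the log2 fold change was -0.77 (SE 0.20, unadjusted p = 0.00496 and adjusted p = 0.635 from limma). In the same list *Skil* was at -0.32 and *Postn* at 0.42. For *Plgrkt*, *Pcolce2*, *Fbln2*, *Mfap4* and *Tgfbi*, and also for *Plg*, *Pcsk5* and *Fbln5*, all 3 u40Hz mice lay below all 3 control mice. For *Ltbp2* all u40Hz mice lay above. These are 9 of the 72 genes measured in the 8 lists, against 12.4% of probe sets whose groups did not overlap. By direction, the u40Hz mice lay below for 6.05% of probe sets and above for 6.40%, whereas they lay below for all of these 9 but *Ltbp2*. The mean of the tenocyte markers also had all u40Hz mice below all control mice, and its part in these values was not tested. Over the 72 genes measured in all 8 lists, 22 (30.6%) had a higher mean, against 51.0% of probe sets, and the median log2 fold change was -0.15. At an unadjusted p under 0.05 from limma 0 of them had a higher mean, against 3.86% of probe sets, and 5 (6.94%) a lower mean, against 3.15%.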

How the data were processed

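Total RNA of the triceps brachii was extracted, labelled and hybridized by the authors to Affymetrix Mouse Clariom S arrays, with 1 array for each of 3 stimulated and 3 control mice. Scans were processed by the authors with the Transcriptome Analysis Console, a program that is also named by the submitters' processing notes. Its summary method and the genome build were not given in the sources used here. Deposited log2 signals, with 2 decimals, cover 22206 probe sets and were used without change. The platform's annotation gives 1 symbol to 19572 probe sets, several to 0 and none to 2634. Arrays give no counts, so that the number of arrays limits the precision. No batch was given in the labels.

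A linear model of group was fitted to every probe set in R 4.3.3 with limma 3.58.1 (lmFit, then eBayes without options), tests were two-sided, and the Benjamini-Hochberg adjustment ran over all 22206 probe sets. The p-values set the difference of the group means against the spread between these mice. In this step eBayes draws the variance of each probe set toward a value shared by all probe sets. A log2 fold change is the difference of the group means, and its SE is that of the moderated model. The model was also run on simulated arrays, the outcome of which is not given here. The dim level was the 95th percentile of the mean signals of 1401 olfactory and vomeronasal receptor probe sets. Tables and figures were made with pandas 2.3.3 and matplotlib 3.10.9.

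The member genes, their 11 classes and the lists of partner genes and cell type markers were chosen with earlier results of these data known. Values in every mouse were given for the member of each class with the smallest unadjusted p, every member with an unadjusted p under 0.05 or groups that did not overlap, the 6 members with the highest mean signal, and *Mmp2*, *Mmp9*, *Mmp14*, *Timp1* to *Timp4* and *Lox*. *Mmp8*, *Mmp19*, *Adamts5* and *Loxl3* were added after their values were seen. Of each list of partner genes, up to 3 with the smallest p were named. The fit was repeated with a trended or a robust variance prior, without moderation, after quantile normalization or median centring, with array weights, without dim probe sets and without each mouse in turn. Promoter sequences, start sites and the order of neighbouring genes are those of RefSeq for GRCm38.p6. The protein sequences of the members were not used here.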

Additional observations from a re-analysis of the deposited data

How the results depend on the processing

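The count of 0 members with an adjusted p under 0.05 from limma held under all alternatives, with 3 to 9 members at an unadjusted p under 0.05. That count was 8 with a trend in the prior of the variance, 7 with a robust prior, 6 with quantile normalization, 8 with median centring, 9 with array weights, 3 without moderation and 3 after removal of the dim probe sets, where 22 members were tested, and 3 to 6 with each mouse left out, the lowest being 3 on leaving out control mouse 6 or control mouse 8, and 4 on leaving out u40Hz mouse 10. The share of all probe sets at this p moved too, from 4.53% without control mouse 6 (members 5.77%) to 8.28% without u40Hz mouse 10 (members 7.69%), and was 6.38% without moderation (members 5.77%). *Loxl1* was in all of these sets. With the dim probe sets left out, 11 members had a higher mean and 4 had groups that did not overlap, since fewer genes were tested. With each mouse left out, 8 to 16 members had groups that did not overlap, as 3 mice against 2 lie apart more often. These were 15.4% of members without control mouse 8, against 20.8% of probe sets, and 30.8% without control mouse 6, against 19.7%. Class medians of the log2 fold change that moved by more than 1 SD of the class mean between mice were those of the membrane-type metalloproteinases (-0.73 with the dim probe sets left out, which leaves *Mmp14*), the other metalloproteinases (0.29, which leaves *Mmp19*), and, over the fits without a mouse, the stromelysins and matrilysin (-0.12 to 0.16), the other ADAMTS proteases (0.01 to 0.23) and the ADAMTS-like proteins (-0.15 to 0.43). The collagenases (-0.29 to 0.20) and the TIMPs (0.15 without control mouse 6 to 0.61) moved by less than their own SD. Of the 52 members 28 had a fit without a mouse in which the sign turned, 12 of them above the dim level. Among the 20 named by the rule, these were *Adamts1* (-0.46 to 0.005), *Adamts3* (-0.47 to 0.05) and *Adamtsl5* (-0.033 to 0.50). For these 20 members no sign turned under the other alternatives. The share of all probe sets whose sign turned without a mouse was not taken. Each member has 1 probe set, so the mean over the probe sets of a gene gave no separate value. No paired analysis was possible because the mouse numbers of the groups are not shared. With 3 mice a group, members at or below the dim level have differences near background.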

Other observations

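The hydroxylases that modify collagen in the cell and other crosslinkers were all but one above the dim level (9 of 10 genes), with 7 of the 10 at a lower mean in the stimulated mice and 0 at an unadjusted p under 0.05 from limma. The smallest p was that of *P4ha2*, a subunit of prolyl hydroxylase (log2 fold change -0.26, unadjusted p = 0.234 and adjusted p = 0.799 from limma), followed by *P4hb* (-0.25). *Plod2*, a lysyl hydroxylase, was at 0.43 with 6.75, 6.0 and 7.10 in the control mice and 7.16, 7.60 and 6.38 in the u40Hz mice. Its groups overlapped.

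The ADAM sheddases, which release proteins from the cell surface and are relatives of the ADAMTS proteases, had a higher mean in 5 of 8 cases, with log2 fold changes of -0.21 to 0.43 and 0 at an unadjusted p under 0.05 from limma. *Adam17*, which TIMP3 inhibits, had log2 signals of 10.19, 9.48 and 9.89 in the control mice and 9.57, 9.48 and 9.89 in the u40Hz mice, so that 2 values of each group were equal to 2 decimals. *Adam12* (0.43) was dim, and *Adam19* was at -0.21.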
